A study of Arabidopsis thaliana with 7 samples.

Results

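The chloroplast ATP synthase genes that lie in the plastid genome of Arabidopsis thaliana were followed through male gametophyte development. The 6 members, atpA, atpB, atpE, atpF, atpH and atpI, were chosen by their plastid locus tag and gene symbol, and each was read by 1 probe set listed with exactly 1 gene. They are 6 of 69 plastid-encoded genes and of 13356 genes in all that were measured in this way on the ATH1 array. RNA came from 4 successive stages, uninucleate microspores (UNM), bicellular pollen (BCP), tricellular pollen (TCP) and mature pollen grains (MPG). UNM, BCP and TCP had 2 arrays each and MPG had 1 array, so no MPG value has a replicate check. All groups were of ecotype Ler-0 with no genetic modification, at growth stage 5.10, and spores were pooled from more than 100 plants grown at 21 °C with 16 h of light. Per the study's methods, replicates came from plants grown independently, and the gradient fractions were enriched rather than pure: BCP also held microspores, tetrads and tricellular grains, and TCP also held bicellular pollen.

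The chloroplast ATP synthase makes ATP from the proton gradient across the thylakoid membrane. Its catalytic head, CF1, carries the alpha (atpA), beta (atpB) and epsilon (atpE) subunits made in the plastid, and its membrane part, CFo, carries subunit b (atpF), the ring of c subunits (atpH) and subunit a (atpI). The gamma, delta and b' subunits are made from nuclear genes and imported, so a complete enzyme needs both genomes. Pollen plastids are not green, and in Arabidopsis plastid DNA is known to be degraded during pollen maturation.

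Signals are linear intensities on arrays scaled to a common mean of 100. Signals under 20 were raised to 20 before taking log2, and a fold change against such a stage is given as "at least". The target RNA was primed with oligo(dT), and plastid mRNAs mostly lack stable poly(A) tails. A signal is therefore set only against the same probe set on other arrays. Losses named below are falls in this scaled signal, and whether poly(A) tails changed between stages was not tested. In these bulk samples, fewer plastids or cells of a type and less RNA in each cannot be told apart. The labelled stages were checked on late pollen markers, 3 of 8 measured, whose summed signal was 268 to 296 at UNM, 1976 to 1979 at BCP, 14424 to 16835 at TCP and 23565 at MPG. Most of this sum was 1 gene, AT3G07820, which read 1806 and 1864 in BCP. From UNM to BCP it and AT59 rose, and TUA1 was not called (0.38, adjusted p = 0.49 by limma). GAPDH control probe sets gave a log2 ratio of 3' over 5' signal of 0.63 to 1.21 on the replicate 1 arrays and 2.76 to 3.19 on the replicate 2 arrays of the stages. The same ratio for actin moved with stage, at 1.60 to 1.79 at UNM and BCP and -2.25 to -1.85 at TCP and MPG, and that for ubiquitin was 1.91 to 3.03 over all arrays.

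All 6 plastid ATP synthase genes were lower at TCP than at UNM on both arrays, but the size of the loss differed widely between subunits. The membrane genes atpI and atpH kept 13.1% and 17.7% of their UNM signal at BCP, while the head genes atpA, atpB and atpE kept 70.9%, 74.5% and 76.6%. The gene of subunit b, atpF, lay between these, at 36.5%. These shares are ratios of geometric means on the floored scale. The BCP fraction also held microspores and tetrads, and their part in the BCP shares was not tested.

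The gene of subunit a, atpI (244995_at, ArthCp010), which with the c ring forms the proton path, read 279 and 357 in UNM, then 40.1 and 42.8 in BCP, then 11.3 and 11.2 in TCP and finally 3.83 in MPG. Both BCP arrays lay below both UNM arrays, and from TCP on the probe set was under the floor. At most 6.33% of the UNM signal was left at TCP.

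The gene of subunit c, atpH (245026_at, ArthCp009), whose product forms the rotating ring, read 1634 and 2260 in UNM, then 322 and 360 in BCP, then 146 and 65.8 in TCP and finally 11.1 in MPG. The stages did not overlap, and the loss went on at every step. It had 5.11% of its UNM signal left at TCP and at most 1.04% at MPG.

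The gene of subunit b, atpF (245025_at, ArthCp008), part of the stalk that holds the head still and the only member with an intron, read 510 and 383 in UNM, then 223 and 117 in BCP, then 73.0 and 26.9 in TCP and finally 18 in MPG. Its replicates differed more than those of the other members at BCP and at TCP, but no stage overlapped the next. At TCP 10.0% of the UNM signal was left, and at MPG at most 4.52%.

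The gene of subunit alpha, atpA (245024_at, ArthCp007), read 2510 and 2567 in UNM, then 1897 and 1705 in BCP, then 1151 and 580 in TCP and finally 283 in MPG. The estimated loss was smallest in the first step and largest in the last, which rests on 1 MPG array. The steps were not tested against each other. Of the UNM signal 32.2% was left at TCP and 11.1% at MPG.

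The gene of the catalytic subunit beta, atpB (245014_at, ArthCp029), read 5228 and 7110 in UNM, then 3643 and 5671 in BCP, then 2356 and 2053 in TCP and finally 2135 in MPG. The UNM and BCP arrays overlapped, and the MPG array lay between the TCP arrays. Its signal at MPG was 35.0% of that at UNM, against 36.1% at TCP.

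The gene of subunit epsilon, atpE (245013_at, ArthCp028), an inhibitor of the head's ATPase activity, read 5208 and 7809 in UNM, then 3735 and 6392 in BCP, then 3024 and 3720 in TCP and finally 1973 in MPG. UNM and BCP overlapped here too. It was the member with the most signal left at TCP, 52.6%, and 30.9% was left at MPG.

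**Figure D1:**
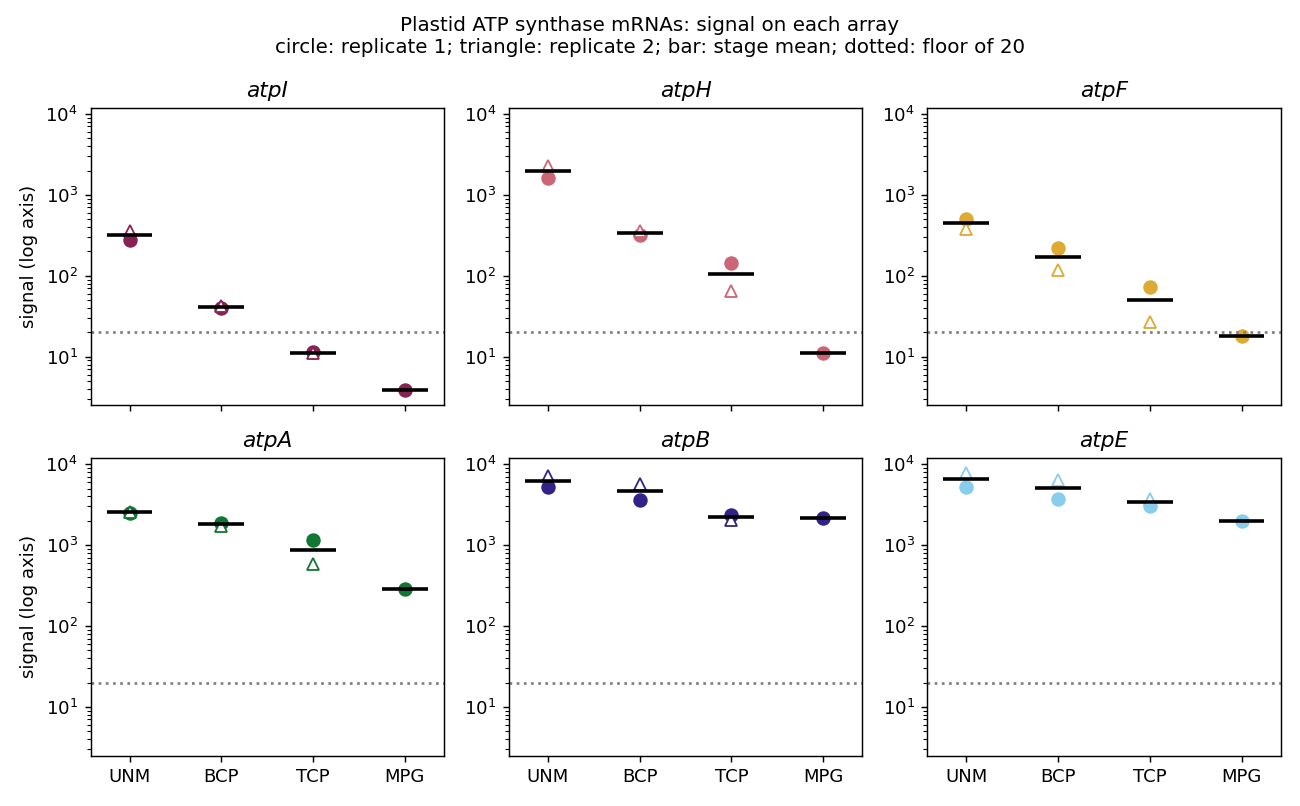
Signal of each plastid ATP synthase gene on each array (log axis, arbitrary intensity units) at UNM, BCP, TCP (2 arrays each, circle and triangle) and MPG (1 array), with a bar at the stage mean. The atpI points at TCP and MPG and the atpF and atpH points at MPG lie under the floor of 20, while atpB and atpE stay at 1973 or above throughout.

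**Figure D2:**
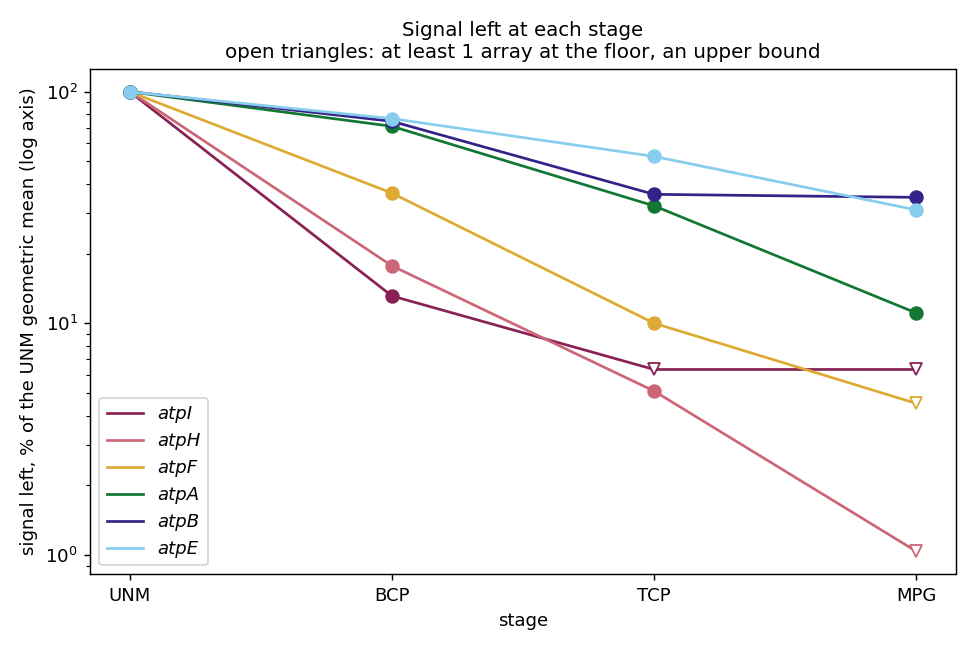
Percentage of the UNM signal left at each stage for the 6 genes (log axis), from stage means on the floored log2 scale. Values that rest on arrays under the floor are upper limits, and at BCP the genes spread between 13.1% for atpI and 76.6% for atpE.

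The first step, BCP against UNM, asked which subunits were already lower in bicellular pollen. With limma and Benjamini-Hochberg adjustment over 14364 probe sets, 2 of 6 members fell and 0 rose, while 0.494% of all probe sets fell and 2.03% rose. atpH fell by 2.50 on the log2 scale (SE 0.40, adjusted p = 0.042 by limma), beside atpI, which fell by 2.93 (SE 0.19, adjusted p = 0.0044 by limma). atpF had a log2 change of -1.45 at BCP and was not called (95% interval -2.79 to -0.11, adjusted p = 0.28 by limma). The intervals of atpA (-1.32 to 0.33), atpB (-1.13 to 0.28) and atpE (-1.22 to 0.45) included 0. Both BCP arrays lay below both UNM arrays for 4 of 6 members, as they did for 24.1% of all probe sets. These 2 calls were lost when any UNM, BCP or TCP array was left out, with adjusted p between 0.056 and 0.083 for atpI and between 0.094 and 0.28 for atpH, in fits that then called 0 probe sets in all by limma. With replicate number as a block the call of atpH was lost (adjusted p = 0.053 by limma) and that of atpI held. A total of 2274 probe sets had an unadjusted p under 0.05 in the full fit.

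In the second step, TCP against BCP, 5 of 6 members fell and 0 rose, while 37.5% of all probe sets fell and 19.0% rose. The changes on the log2 scale were -1.86 for atpF (SE 0.54, adjusted p = 0.029 by limma), -1.79 for atpH (SE 0.40, adjusted p = 0.011), -1.14 for atpA (SE 0.33, adjusted p = 0.03) and -1.05 for atpB (SE 0.28, adjusted p = 0.023). atpI was at least 2.07-fold lower at TCP (adjusted p = 0.0051 by limma), with both TCP arrays under the floor, so that its standard error rests on the UNM and BCP arrays. atpE had a log2 change of -0.54 and was not called (95% interval -1.38 to 0.29, adjusted p = 0.22 by limma). Both TCP arrays lay below both BCP arrays for 6 of 6 members, a pattern shared by 49.0% of all probe sets. With replicate number as a block atpE was called too (adjusted p = 0.049 by limma), and with quantile normalization atpE was called (-1.26, 0.0017) and atpF was not (-1.43, 0.098). The number of members called was 3 without either UNM array or without TCP replicate 2, and 2 without either BCP array. The actin 3' over 5' ratio moved with this step, with log2 values of -2.25 and -1.85 at TCP and 1.62 and 1.60 at BCP, and its part in the falls was not tested. The TCP arrays also differed from each other for 3 members: atpA was 1.99-fold, atpF 2.71-fold and atpH 2.22-fold higher on replicate 1 than on replicate 2, where the median probe set differed 1.16-fold. The GAPDH 3' over 5' ratio differed between the same arrays, with a log2 value of 1.06 on replicate 1 and 3.19 on replicate 2, and its part in these differences was not tested.

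In the last step, MPG against TCP, 1 of 6 members fell and 0 rose, while 7.43% of all probe sets fell and 5.02% rose. This was atpH, at least 4.91-fold lower at MPG (adjusted p = 0.039 by limma), and the call was lost without any one array of the 3 earlier stages (adjusted p between 0.072 and 0.096). atpA had a log2 change of -1.53 (95% interval -2.54 to -0.52, adjusted p = 0.067 by limma). With replicate number as a block atpA and atpF were called too (adjusted p = 0.04 and 0.041 by limma). The change of atpB was -0.04 with a 95% interval of -0.90 to 0.82. No fold can be given for atpI, which was under the floor at both stages.

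Over the wider spans the losses were larger than the replicate spread for most subunits. In TCP against UNM 5 of 6 members fell and 0 rose, while 39.7% of all probe sets fell and 20.9% rose. The called genes had log2 changes of -4.29 for atpH (SE 0.40, adjusted p = 0.0003 by limma), -3.32 for atpF (SE 0.54, adjusted p = 0.0028), -1.64 for atpA (SE 0.33, adjusted p = 0.0071) and -1.47 for atpB (SE 0.28, adjusted p = 0.0056). atpI was at least 15.8-fold lower (adjusted p = 3.6e-05 by limma), and atpE had a log2 change of -0.93 (adjusted p = 0.057). Without TCP replicate 2 atpB was no longer called (adjusted p = 0.063 by limma), and without either BCP array or the MPG array atpE was called as well. With replicate number as a block atpE was called (adjusted p = 0.0079 by limma), and likewise with quantile normalization (0.00089). Both TCP arrays lay below both UNM arrays for all 6 members and for 50.5% of all probe sets. In MPG against UNM 6 of 6 members fell and 0 rose, while 40.4% of all probe sets fell and 20.1% rose. The members ranged from a log2 change of -1.51 for atpB (adjusted p = 0.012 by limma) to a fall of at least 96.1-fold for atpH (adjusted p = 0.00021). The call of atpE in this comparison was lost without UNM replicate 2 (adjusted p = 0.064 by limma) or either TCP array (0.058 and 0.057), and that of atpB without UNM replicate 2 (0.052). The median log2 change over all probe sets was -0.38 in TCP against UNM and -0.53 in MPG against UNM. Within each replicate number, every member was lower at the later stage in the steps between UNM, BCP and TCP. Examples in TCP against UNM are -1.12 and -2.15 on the log2 scale for atpA and -0.78 and -1.07 for atpE. The same count was not made over all probe sets, and the labels do not tie a replicate number to shared plants.

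The signal of plastid-encoded genes as a whole fell during these stages, so the ATP synthase genes were set against the other 63. In TCP against UNM all 63 of the others fell, with a median log2 change of -2.99 and a range of -4.50 to -1.30. Ordered by the size of the fall on the floored scale, where 6 of the 69 falls are bounds and may be larger, atpH was in place 3, atpI in place 8 from its bound, atpF in place 25, atpA in place 63, atpB in place 66 and atpE in place 69, the smallest fall. In BCP against UNM the median of the other plastid-encoded genes was -1.61 and 32 of the 63 fell. Here atpI was in place 4, atpH in place 12, atpF in place 37 and atpA, atpB and atpE in places 63, 64 and 65. In MPG against UNM, where 12 of the 69 falls are bounds, atpH had the largest fall on the floored scale and atpB the smallest.

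**Figure D3:**
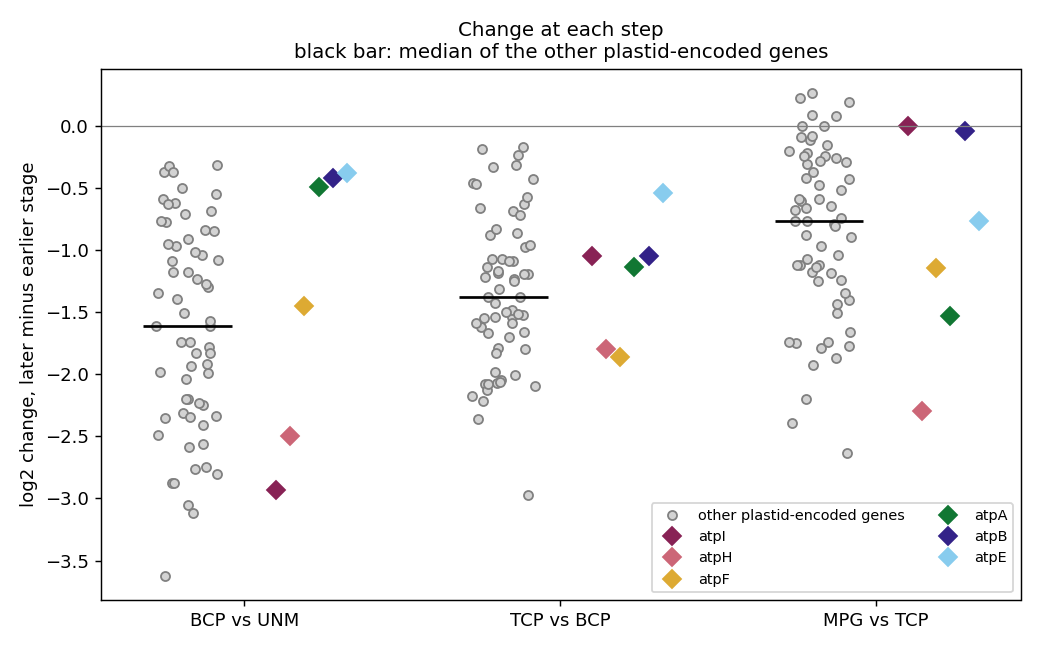
Log2 change of each plastid ATP synthase gene in each step (coloured points) against the other 63 plastid-encoded genes (grey points). In BCP against UNM atpI and atpH lie in the lower part of the grey points and atpA, atpB and atpE at their upper edge.

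The difference from the plastid transcripts as a whole was tested with limma after taking the median log2 value of the other 63 genes off each array. The moderation of this fit was complete (infinite prior degrees of freedom), for a reason that was not tested. Every gene therefore has the same standard error, 0.39 (0.47 with MPG), and the adjusted p-values are smaller than 7 arrays can support. Each is therefore followed by the adjusted p from the gene's own spread over 3 residual degrees of freedom, an alternative added after seeing the data. In BCP against UNM atpI lost more than the median, by -1.31 on the log2 scale (adjusted p = 0.00097 by limma, 0.028 from its own spread), and atpA lost less, by 1.13 (0.0041 and 0.032). atpH at -0.87 (0.025 and 0.093), atpB at 1.2 (0.0023 and 0.058) and atpE at 1.24 (0.0017 and 0.11) passed in the moderated fit only, and atpF stood at 0.17 (0.66 and 0.78).

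Over the wider spans the 3 genes of the head lost less than the median by TCP. In TCP against UNM atpE stood at 2.25 (adjusted p = 9.3e-09 by limma, 0.028 from its own spread), atpB at 1.71 (1.3e-05 and 0.023) and atpA at 1.55 (8.3e-05 and 0.011). atpH lost more in the moderated fit, by -1.11 (0.0048 and 0.053), and atpI passed in both at -0.80 (0.043 and 0.046), a value limited by the floor that did not keep its sign with a floor of 40. In MPG against UNM atpB stood at 2.42 (adjusted p = 4.4e-07 by limma, 0.016 from its own spread), atpE at 2.24 (2.9e-06 and 0.042) and atpH at -2.65 (3.4e-08 and 0.012), and atpA did not pass, at 0.77 (0.11 and 0.07). In the single steps after BCP, atpE lost less in TCP against BCP, by 1.01 (adjusted p = 0.014 by limma, 0.19 from its own spread), and atpH lost more in MPG against TCP, by -1.54 (0.0083 and 0.16).

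In the moderated fit the calls of atpI and atpA in BCP against UNM, of atpA, atpB and atpE in TCP against UNM and of atpB, atpE and atpH in MPG against UNM held when any single array was left out. Others did not: in BCP against UNM atpE without UNM replicate 1 or BCP replicate 2, atpB without BCP replicate 2 and atpH without UNM replicate 2 or BCP replicate 1. In TCP against UNM atpH was lost without UNM replicate 2 or TCP replicate 2 and atpI without either UNM array, BCP replicate 2 or TCP replicate 1. In the single steps atpE was lost without BCP replicate 1 or TCP replicate 2 and atpH without TCP replicate 1. Conversely, atpA passed in MPG against UNM without either TCP array, and in MPG against TCP, as lost more, without TCP replicate 2. Most tested probe sets are of nuclear genes, and the background of this fit says nothing about the members. In the comparisons with UNM most pass as lost less, so that the adjusted p is close to the unadjusted one. In the steps after BCP the 2 lie further apart, as for atpH in MPG against TCP (unadjusted p = 0.0012, adjusted p = 0.0083 by limma). The shares that lost less were 97.5% in BCP against UNM, 89.5% in TCP against UNM, 95.2% in MPG against UNM, 62.1% in TCP against BCP and 29.1% in MPG against TCP. The shares that lost more, in the same order of comparisons, were 0.0975%, 1.41%, 0.0766%, 7.92% and 1.83%.

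**Figure D4:**
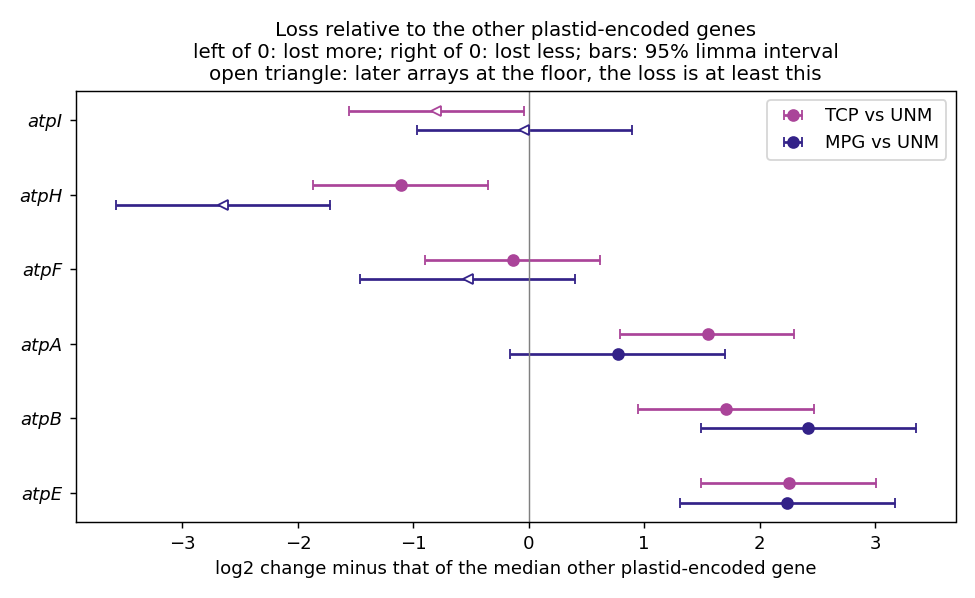
Log2 change of each gene minus that of the median other plastid-encoded gene, with 95% intervals of the moderated limma fit, which are narrower than the own spread of some genes allows, for TCP against UNM and MPG against UNM. atpB and atpE lie to the right of 0 (lost less) in both, atpH to the left in both, and open triangles mark losses that are at least as large as drawn because the later arrays were at the floor.

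The order of the genes in the plastid genome was then compared with these changes. In the gene table atpA, atpF, atpH, atpI and rps2 follow each other, and they are known to be transcribed together in the order rps2, atpI, atpH, atpF, atpA. The genes atpE and atpB overlap each other in the table and are also transcribed together. Along the large unit the share of UNM signal left at BCP was 13.1% for atpI, 17.7% for atpH, 36.5% for atpF and 70.9% for atpA. rps2, the gene before atpI in the unit, kept 55.7%. rps2, which encodes a protein of the small ribosomal subunit, read 1223 and 740 in UNM, then 592 and 475 in BCP, then 107 and 99.2 in TCP and finally 43.5 in MPG. Its log2 change was -0.84 in BCP against UNM (adjusted p = 0.24 by limma) and -2.36 in TCP against BCP (adjusted p = 0.00095), so that its larger fall came in the second step. For the adjoining atpI the second step is only a bound, and which of its steps was larger cannot be read. These values are set side by side, and the differences between genes of a unit were not tested. The pair atpB and atpE kept 74.5% and 76.6% at BCP and 35.0% and 30.9% at MPG. Over the 7 arrays the log2 signals of the members correlated with Pearson's r between 0.749 (atpA with atpI, and atpE with atpF) and 0.964 (atpF with atpH), with 0.899 for atpB with atpE. All of these share the same 7 arrays and the fall over the stages.

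**Figure D5:**
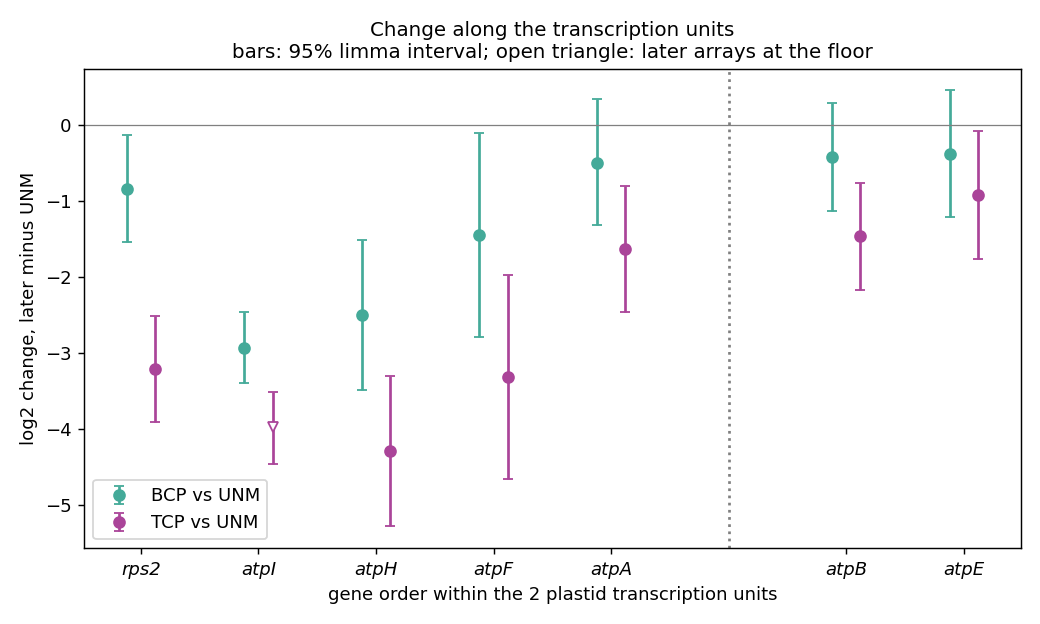
Log2 change of the ATP synthase genes and rps2 in gene order for BCP against UNM and TCP against UNM, with 95% limma intervals and an open triangle where the later arrays were at the floor. In BCP against UNM the fall is largest at atpI and atpH and smaller towards atpA on one side and rps2 on the other, and atpB and atpE stand at -0.42 and -0.38.

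Among the nuclear subunit genes 2 of 4 were measured by a probe set of 1 gene, and both had their lowest signals at TCP. ATPC1, the main gamma subunit, read 60.6 and 81.5 in UNM, then 93.0 and 82.9 in BCP, then 33.1 and 52.1 in TCP and finally 66.8 in MPG. ATPC2, a second gamma gene, read 53.0 and 52.2 in UNM, then 49.9 and 65.2 in BCP, then 8.57 and 11.4 in TCP and finally 21.4 in MPG. In BCP against UNM 0 of 2 were called, in a step where 0.494% of all probe sets fell and 2.03% rose. In TCP against BCP, where 37.5% of all probe sets fell, both fell. The fall was 1.08 on the log2 scale for ATPC1 (adjusted p = 0.02 by limma) and at least 2.85-fold for ATPC2 (adjusted p = 0.0013). Only 1 of these calls was left without either BCP array, without TCP replicate 1 or with quantile normalization, and 0 with scaling to the spiked controls. In MPG against UNM the change of ATPC1 was -0.07 (adjusted p = 0.87 by limma), and ATPC2 fell by 1.30 (adjusted p = 0.005).

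Of 8 genes for assembly of the enzyme or for atp mRNAs, 4 were measured and 2 were bright enough to test. AT4G34090 fell by 0.92 on the log2 scale in TCP against BCP (adjusted p = 0.029 by limma) and read 4.03 at MPG, and AT2G21385 was not called. That call was lost without either UNM or BCP array or TCP replicate 2, and with quantile normalization or scaling to the spiked controls. Of 21 nuclear genes of plastid transcription 1 was measured, AT5G15700, an RNA polymerase of the organelles. It read 41.6 and 7.15 in UNM, 8.25 and 47.4 in BCP, 3.73 and 10.8 in TCP and 6.55 in MPG. Its change in TCP against UNM did not pass (-0.53, adjusted p = 0.41 by limma). With 1 UNM array and 2 TCP arrays under the floor, this cannot show whether it changed. Of 7 plastid nuclease genes 0 were measured. The nuclear genes of the mitochondrial ATP synthase, a related enzyme of respiration, were measured for 5 of 13. In BCP against UNM 0 of the 5 were called, beside 0.494% of all probe sets that fell and 2.03% that rose. In TCP against BCP 37.5% of all probe sets fell and 19.0% rose. Of the 5 genes 3 fell, AT4G26210 by 1.84, AT2G19680 by 1.59 and AT4G29480 by 1.06, and 1 rose, AT1G51650 (0.71, adjusted p = 0.031 by limma). The rise was lost without either UNM or TCP array or BCP replicate 1, and with quantile normalization or scaling to the spiked controls.

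The genes whose course over the 7 arrays was most like the mean of the members, among 8237 candidates, were psbL (Pearson's r = 0.9927), cemA (0.9921), psbA (0.9912), AT2G07695 (0.9863) and ccsA (0.986). Of these, psbL and psbA encode parts of photosystem II. Plastid-encoded genes, of which 63 besides the members were measured, made up 11 of the 20 most similar. These correlations rest on the same 7 arrays and share the fall over the stages.

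Few markers of other cells were named here by a probe set of 1 gene. Of 16 green tissue markers 1 was measured, RCA (rubisco activase), at 77.2 to 90.4 at UNM, 125 to 173 at BCP, 77.0 to 103 at TCP and 44 at MPG, so that both BCP arrays read above both UNM arrays, while every member had a lower mean at BCP. Tapetum markers, 3 of 11 measured, had a summed signal of 66.8 to 84.1 at UNM, 27.6 to 36.7 at BCP, 38.9 to 45.4 at TCP and 18.5 at MPG. Meiocyte markers, 2 of 8 measured, summed to 82.0 to 92.0 at UNM, 71.3 to 90.3 at BCP, 36.0 to 38.4 at TCP and 61.2 at MPG. The tapetum sum was lower at BCP than at UNM, as atpI and atpH were, but it rests on dim probe sets. Of its 3 genes, 2 were under 40 on every UNM array and 3 on every BCP array. The 1 tested gene, AT1G75920, was not called in BCP against UNM (-0.60, adjusted p = 0.22 by limma). The part of the tapetum in the fall of atpI and atpH was not tested.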

How the data were processed

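RNA of 7 samples (2 each of UNM, BCP and TCP, 1 of MPG) was hybridised to ATH1 arrays. The authors deposited a table of linear signal intensity for 22810 probe sets, with every array already scaled to the same trimmed mean. The study's methods name dChip for its own normalization of these arrays, but no source used here names the software of the deposited table, and detection calls were not used. Here 64 control probe sets were removed, and the rest of every array was brought to a trimmed mean (2%) of 100 (largest factor 1.0084). Signals under 20 were set to 20, log2 values were taken, and testing was limited to 14364 probe sets that reached 40 on any array.

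All 7 arrays were fitted together with limma 3.58.1 in R 4.3.3, with a mean per stage and 3 residual degrees of freedom (prior 2.77). p-values were adjusted by Benjamini-Hochberg within each of 5 comparisons, with a threshold of 0.05. MPG, with 1 array, took its spread from the other stages. A second fit took off each array's median of the 63 other plastid-encoded genes; its prior degrees of freedom were infinite, so it was repeated with each probe set's own spread (3 degrees of freedom, no moderation), an alternative added after seeing the data. The number of arrays limits the precision. Genes came from the platform annotation, in which 13513 probe sets had 1 gene and 503 several, and gene order and plastid genes from the RefSeq gene table (85 plastid-encoded protein-coding genes). Start and end coordinates in that table gave the gene order and the overlaps, and sequences were not used here.

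The members, gene lists and tests were chosen with earlier results of these data known. Named genes were the members, rps2, the nuclear subunits, the largest changes of each list and the 5 most similar courses. The script was tested on simulated data. Alternatives were other floors (10 and 40), no filter or a minimum of 80, no rescaling, quantile normalization, scaling to spiked controls, replicate number as a block, an intensity trend, and leaving out each array.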

Additional observations from a re-analysis of the deposited data

How the results depend on the processing

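Of 468 log2 changes of members under the alternatives, 393 kept their side of the threshold and did not turn. A value of 0 counted as not turned. This takes in atpI in MPG vs TCP, 0.0 at the floor and -0.17 to 0.08 under the alternatives. It also takes in atpE in BCP vs UNM without BCP replicate 1 (0.0). Of the rest, 60 no longer passed, 12 newly passed and 3 turned. All 3 were of atpB in MPG vs TCP, which was not called, at -0.04. They were 0.07 with spiked control scaling, 0.10 with the replicate block, and -0.14 to 0.06 when single arrays were left out. Of 468 changes relative to the other plastid-encoded genes, 414 kept their side and did not turn, 23 no longer passed, 8 newly passed and 23 turned. Of those that turned, 2 had been called: atpE in TCP vs BCP (-0.03 with quantile normalization, against 1.01) and atpI in TCP vs UNM (0.20 with a floor of 40, against -0.80), where a higher floor by construction shortens the fall of a dim gene. The others that turned had not been called. With quantile normalization they were atpA at -0.44 and atpB at -0.57 in TCP vs BCP. With a floor of 40 they were atpF at 0.32 in MPG vs TCP, 0.15 in TCP vs UNM and 0.47 in MPG vs UNM, and atpI at 0.96 in MPG vs UNM. With a floor of 10 it was atpI at -0.32 in TCP vs BCP. With the replicate block they were atpE at 0.34 in MPG vs TCP and atpI at 0.11 in MPG vs UNM. With the median over plastid genes never under 20 they were atpE at 0.17 in MPG vs TCP and atpI at 0.18 in MPG vs UNM. Leaving out single arrays gave atpF -0.23 to 0.57 in BCP vs UNM, -0.63 to 0.35 in TCP vs UNM, -0.80 to 0.18 in TCP vs BCP and -0.88 to 0.10 in MPG vs TCP, atpH -0.59 to 0.11 in TCP vs BCP, atpE -0.39 to 0.37 in MPG vs TCP and atpI -0.16 to 0.08 in MPG vs UNM.

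In BCP vs UNM the 2 members called became 1 with a floor of 40, with no filter, with spiked control scaling and with the replicate block, and 0 to 2 when single arrays were left out. In TCP vs BCP the 5 called became 2 with a floor of 40, 1 with no filter and 2 with spiked control scaling, and 2 to 5 when single arrays were left out. In MPG vs TCP the 1 called became 0 with a floor of 40, with no filter and with spiked control scaling, 2 with a minimum of 80 or quantile normalization, 3 with the replicate block, and 0 when single arrays were left out. In TCP vs UNM and MPG vs UNM single arrays moved the counts of 5 and 6 between 4 and 6. With no filter and with spiked control scaling both counts became 4. The other alternatives gave 5 or 6 in TCP vs UNM and 6 in MPG vs UNM. The cause of these shifts was not tested.

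Relative to the other plastid-encoded genes, the 1 member that lost less in TCP vs BCP became 2 with a floor of 40 and 0 with quantile normalization, and the 1 that lost more in MPG vs TCP became 0 with a floor of 40. The 2 that lost more in TCP vs UNM became 1 with a floor of 40, with an intensity trend and with the median taken over plastid genes never under 20, an alternative chosen after seeing the data. With each gene's own spread, also chosen after seeing the data, the 3 that lost less and the 2 that lost more in BCP vs UNM became 1 and 1, the single calls in TCP vs BCP and MPG vs TCP became 0, and the 2 that lost more in TCP vs UNM became 1. In MPG vs UNM the 2 that lost less became 4 with a floor of 40, and the 1 that lost more became 2 with a floor of 10 or the replicate block. Leaving out single arrays gave 1 to 3 (less) and 1 to 2 (more) in BCP vs UNM, 0 to 1 (less) in TCP vs BCP, 0 to 2 (more) in MPG vs TCP, 0 to 2 (more) in TCP vs UNM and 2 to 3 (less) in MPG vs UNM.

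Deviations of arrays with the same replicate number correlated over 14364 probe sets (r = 0.435 for UNM and BCP, 0.219 for UNM and TCP, 0.276 for BCP and TCP). The labels do not say that a number marks shared plants, and with 2 numbers per stage the arrays were not treated as paired; the calls that the block changes are given beside the results. Quantile normalization moved the median log2 change of all probe sets in TCP vs BCP to 0.01, against -0.33, and called 5 members there, with atpE in place of atpF. A signal under the floor of 20 sets only an upper limit, which limits atpI after BCP and atpF and atpH at MPG.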
